A study of Mus musculus with 38 samples.

Results

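Ketone bodies are small fuels that the liver makes from fatty acids and that the heart burns. The 4 genes described here, Slc16a1, Bdh1, Oxct1 and Acat1, carry them from the blood to acetyl-CoA in the cardiac mitochondrion. Slc16a1 encodes MCT1, a plasma membrane transporter of monocarboxylates such as lactate, pyruvate and ketone bodies. Bdh1 encodes the mitochondrial dehydrogenase that oxidises beta-hydroxybutyrate to acetoacetate. Oxct1 encodes SCOT, which activates acetoacetate with CoA taken from succinyl-CoA and is the committed step of ketone use. Acat1 encodes the mitochondrial thiolase that splits acetoacetyl-CoA into acetyl-CoA, and it also serves isoleucine breakdown. The heart has been described as using more ketone bodies in several forms of failure, and SGLT2 inhibitors are known to raise ketone bodies in blood.

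The genes were taken by symbol. The tables list 29564 genes, and 7693 of these drew no count at all. All 4 members were found and all 4 were among the 13765 genes with enough counts to be tested. Bulk poly(A) RNA of the left ventricle was sequenced from 38 adult wild-type C57BL6 mice, 1 library per mouse. The non_failing group (n = 8) was kept on standard chow and received vehicle. The 3 other groups carried heart failure with preserved ejection fraction (HFpEF), a state of stiff ventricles with normal ejection, brought on by feeding fat-rich chow together with L-NAME, a blocker of nitric oxide synthase. They then received vehicle by mouth (HFpEF+Veh, n = 8), TYA-018, an inhibitor of the deacetylase HDAC6 (HFpEF+TYA-018, n = 11), or empagliflozin, which inhibits the renal glucose transporter SGLT2 (HFpEF+SGLT2i, n = 11). The non_failing group thus differs from the others in diet and L-NAME together, whose parts cannot be told apart. The labels and the study's methods differ on sex and on the length of treatment, so neither is given here.

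Libraries held 21.5 to 59.3 M counts, with group means of 31.7 to 35.0 M. Mitochondrially encoded transcripts took 28.5 to 39.5% of the counts. The 8 cardiomyocyte markers were abundant in every group, with summed levels of 15339 to 29356 TPM (a transcript level scaled to length and to the library total). Of these markers, Myl2, Tnni3 and Tnnt2 were called lower in HFpEF+Veh and in HFpEF+SGLT2i than in non_failing, and none of the 8 in HFpEF+TYA-018. One vehicle heart, HFpEF+Veh V2523, stood apart by liver transcripts: its 18 hepatocyte markers summed to 1896 TPM, against a median of 7.49 TPM in its group. The non_failing hearts also held more of them (28.7 to 420 TPM) than the TYA-018 hearts (2.34 to 5.16 TPM). The members' fitted differences from vehicle hearts, and the ratios called against them, are therefore also given without V2523. In bulk tissue, fewer cells of a type and less RNA per cell cannot be told apart.

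Slc16a1 lies at chr3:104638668-104658462 on the plus strand of GRCm38, Bdh1 at chr16:31422280-31458901 (plus), Oxct1 at chr15:4026383-4155344 (plus) and Acat1 at chr9:53580522-53610382 (minus). All 4 are protein-coding. Annotated antisense genes overlap Bdh1 (Gm15743) and Oxct1 (BC037032 and Gm15632), and Gm43581 and Gm43585 lie inside Slc16a1 on its own strand. Only Bdh1 shared any sequence of 31 bases with transcripts of another gene (8 of 3901 such stretches, 0.205%), so little of these counts could have been split with a near copy. No promoter entry was matched for Acat1, so its stretch is not shown. Because the genes varied together across hearts, as described further on, the stretches just before the annotated starts of Slc16a1, Oxct1 and Bdh1 are shown, from RefSeq promoter entries on GRCm38.p6. They run 5′ to 3′ on the gene's strand, at chr3:104638459-104638663 for Slc16a1, chr15:4026178-4026382 for Oxct1 and chr16:31422075-31422279 for the first of the Bdh1 starts. Capitals mark matches to CACGTG, the E-box, and to GGGCGG, the GC box.
Slc16a1: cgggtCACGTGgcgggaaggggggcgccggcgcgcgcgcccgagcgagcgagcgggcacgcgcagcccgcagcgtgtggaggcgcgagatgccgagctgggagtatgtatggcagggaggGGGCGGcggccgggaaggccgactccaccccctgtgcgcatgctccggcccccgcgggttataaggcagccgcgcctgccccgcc
Oxct1: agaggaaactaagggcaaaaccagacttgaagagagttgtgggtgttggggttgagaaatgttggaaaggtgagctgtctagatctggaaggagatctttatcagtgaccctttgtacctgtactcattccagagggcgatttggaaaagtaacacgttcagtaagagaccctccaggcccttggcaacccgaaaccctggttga
Bdh1: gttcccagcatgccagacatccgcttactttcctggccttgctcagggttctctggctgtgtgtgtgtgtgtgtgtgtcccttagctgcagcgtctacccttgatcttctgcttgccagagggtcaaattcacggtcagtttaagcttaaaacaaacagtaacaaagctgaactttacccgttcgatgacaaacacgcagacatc
The Slc16a1 stretch was 77.6% G and C, against 47.8% for Oxct1 and 49.3% for this Bdh1 start. In the 250 bases before the start, searched on both strands, CACGTG and GGGCGG each occurred once in Slc16a1 and not in the Oxct1 or Bdh1 windows. Among 32851 mouse promoters, 6.02% held CACGTG and 32.7% GGGCGG. The hexamer AGGTCA, the half-site of many nuclear receptors, was in none of these windows and in 14% of promoters. These are matches of letters, not sites.

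Oxct1 was the most abundant of the 4 transcripts and Bdh1 or Slc16a1 the least. Per length, the order Oxct1, Acat1, Slc16a1, Bdh1 held in 36 of 38 libraries, and in the other 2 Bdh1 stood slightly above Slc16a1. Across libraries, neighbours in this order overlapped: in HFpEF+SGLT2i, Acat1 reached 142 TPM while Oxct1 fell to 69.5 TPM in another heart. The steps of the pathway were therefore present at unequal transcript levels, with the oxidising dehydrogenase well below the CoA transferase.

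**Figure D1:**
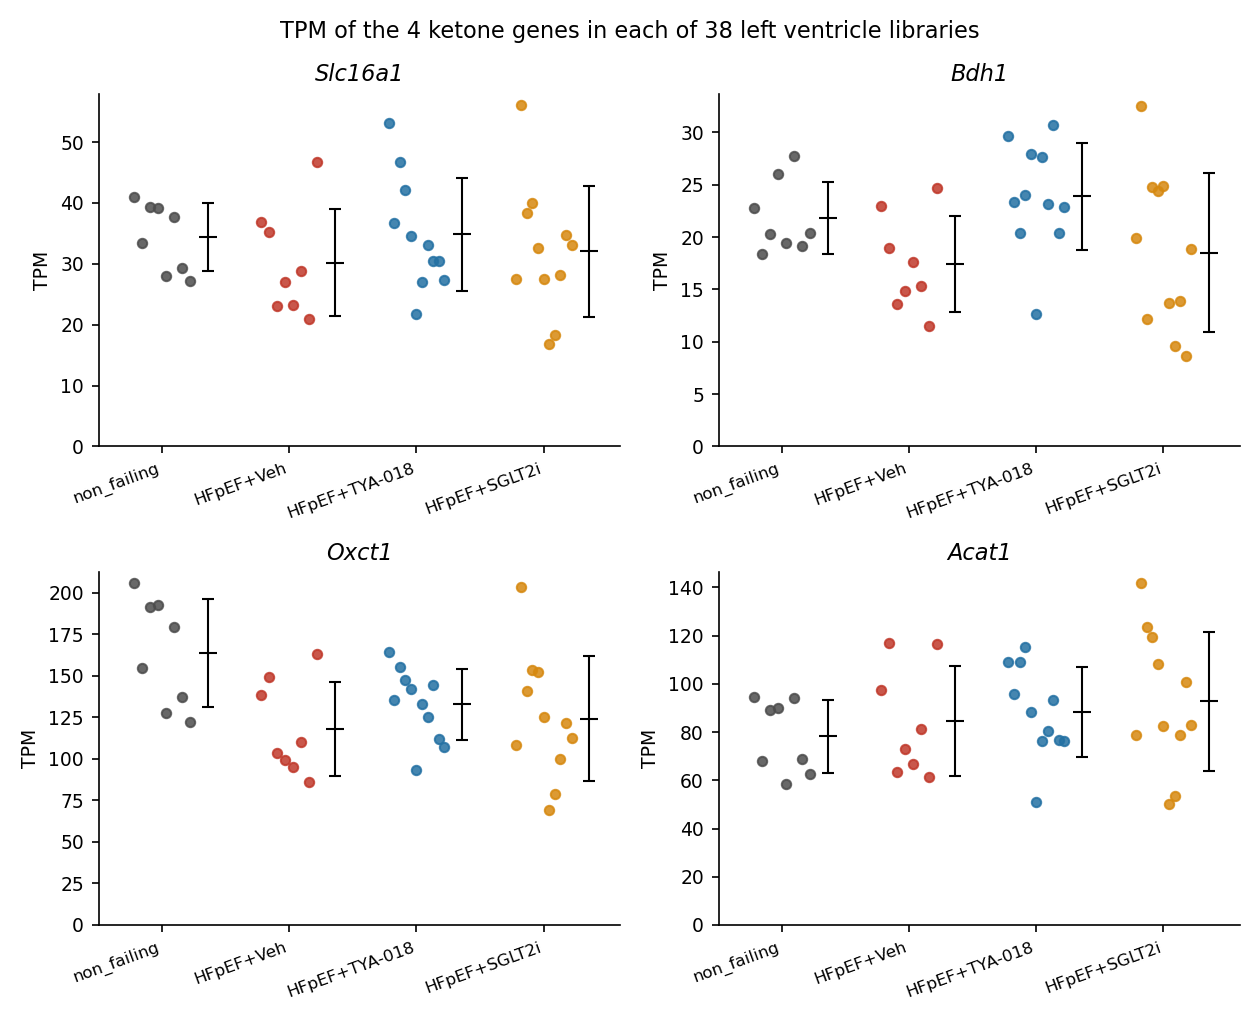
TPM (a level scaled to transcript length, linear axis from 0) of Slc16a1, Bdh1, Oxct1 and Acat1 in each library, by group, with 1 point per heart and the group mean ± SD beside the points. Oxct1 was highest in non_failing hearts (mean 164 TPM), Acat1 was not, and every gene's groups overlapped.

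Oxct1, the committed step, was lower in untreated HFpEF than in non-failing hearts, and it was the only one of the 4 genes called in any of the 6 comparisons. In non_failing it ranged from 122 to 206 TPM, with a median of 167 TPM. In HFpEF+Veh it ranged from 85.8 to 163 TPM, with a median of 107 TPM. The lowest vehicle heart was V2530, which was lowest in its group for each of the 4 genes. All 8 vehicle hearts lay below the non_failing mean in log2 CPM (counts scaled to library size and TMM factor, with no length correction), although the groups overlapped. Counts of hearts above or below a group mean are in log2 CPM for genes and in log2 of the TPM ratio for ratios. The fitted level was 0.687 times that of non_failing (log2 fold change -0.54, SE 0.15, edgeR quasi-likelihood test, adjusted p = 0.0426). Over all genes, 3.15% were called in this comparison and 1.38% were called lower, so 1 of 4 members is to be read against that share. The call was near the threshold, and was lost with library size alone, without the filter on low counts and in limma on log2(TPM + 0.1) (adjusted p = 0.0898, 0.0644 and 0.0722). It was kept without V2523 (-0.58, adjusted p = 0.0299) and in 27 of 38 fits that each left out 1 library, and was lost without any one of non_failing V2501, V2502, V2503, V2504 or V2508 or of HFpEF+Veh V2521, V2526, V2527, V2528, V2529 or V2530 (adjusted p up to 0.104). Of the 8 cardiomyocyte markers, 3 were called lower in this comparison (Myl2 -0.37, Tnni3 -0.34, Tnnt2 -0.43 on the log2 scale) and 5 were not called. Of 7 fibroblast markers, Lum (0.86) and Pdgfra (0.33) were called higher. The 5 erythroid markers, with a median log2 fold change of 1.26, each had an unadjusted p under 0.05 and none was called. The part of these markers' cells in the Oxct1 result was not tested.

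The other 3 genes were not called between HFpEF+Veh and non_failing. Bdh1, the beta-hydroxybutyrate dehydrogenase, ran from 18.4 to 27.8 TPM in non_failing (median 20.3 TPM). In HFpEF+Veh it ran from 11.5 to 24.7 TPM (median 16.5 TPM), with 7 of 8 hearts below the non_failing mean in log2 CPM (log2 fold change -0.44, SE 0.20, edgeR adjusted p = 0.280, unadjusted 0.0387). Without V2523 these values were -0.44 and an adjusted p of 0.255. Slc16a1, the transporter, ran from 27.1 to 41.0 TPM in non_failing and from 20.9 to 46.8 TPM in HFpEF+Veh (log2 fold change -0.26, SE 0.18, edgeR adjusted p = 0.483), and stood at -0.28 without V2523 (adjusted p = 0.426). Acat1, the thiolase, was at much the same fitted level in both: 58.4 to 94.7 TPM in non_failing and 61.5 to 117 TPM in HFpEF+Veh (log2 fold change 0.05, SE 0.17, edgeR adjusted p = 0.927). Its sign was not stable: it turned to -0.03 without V2523 and to -0.14 without V2523 and V2532. Thus Oxct1 and Acat1, which catalyse successive steps, did not move alike between these groups, and the ratio between them is described further on.

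Under TYA-018 the largest fitted difference from vehicle among the 4 genes was in Bdh1. It ran from 12.6 to 30.7 TPM in HFpEF+TYA-018, with a median of 23.3 TPM, against the 16.5 TPM of HFpEF+Veh. Of the 11 treated hearts, 10 lay above the vehicle mean, and the fitted level was 1.49 times that of vehicle (log2 fold change 0.58, SE 0.19, edgeR p = 0.00466, adjusted p = 0.101). This did not pass the threshold, and none of the 4 genes was called where 1.93% of all genes were. Those 266 genes included all 18 hepatocyte markers, each called lower. The Bdh1 value hardly changed without V2523 (0.58, adjusted p = 0.106) and stayed uncalled in each fit without 1 library. With the library's median effective transcript length as a covariate, a model chosen after seeing the data, Bdh1 (0.67, adjusted p = 0.0256) and Slc16a1 (0.42, adjusted p = 0.0275) were called.

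Oxct1 and Slc16a1 had smaller fitted differences under TYA-018, each with 10 of 11 hearts above the vehicle mean in log2 CPM. Oxct1 ran from 93.2 to 164 TPM with a median of 135 TPM (log2 fold change against vehicle 0.26, SE 0.14, edgeR adjusted p = 0.345). Slc16a1 ran from 21.7 to 53.1 TPM with a median of 33.1 TPM (0.31, SE 0.16, edgeR adjusted p = 0.330). Acat1 ran from 51.2 to 115 TPM with a median of 88.3 TPM (0.18, SE 0.16, edgeR adjusted p = 0.585). Without V2523 the fitted differences were 0.30, 0.32 and 0.26 for Oxct1, Slc16a1 and Acat1, and none was called. In the same order they were 0.13, 0.18 and 0.05 with library size alone. Without V2523 and V2532 together they were 0.41, 0.47 and 0.38, again with no call. All 4 genes were lowest in the same TYA-018 heart, V2550.

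Against non_failing, the TYA-018 hearts gave no call among the 4 genes, where 7.39% of all genes were called. Oxct1 lay below the non_failing mean in 10 of 11 hearts (log2 fold change -0.28, SE 0.14, edgeR adjusted p = 0.247). Bdh1 stood at 0.14 (SE 0.19, edgeR adjusted p = 0.724), Slc16a1 at 0.04 (SE 0.16, edgeR adjusted p = 0.913) and Acat1 at 0.23 (SE 0.16, edgeR adjusted p = 0.440). The length covariate called Acat1 (0.39, adjusted p = 0.0399), and Slc16a1 was -0.011 with library size alone and -0.0026 in both limma fits. This comparison and the one with vehicle share the TYA-018 libraries, so their values are not independent of each other.

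Empagliflozin hearts spread most widely, and none of the 4 genes was called against vehicle, where 0.85% of all genes were. Those 117 genes included all 18 hepatocyte markers, and without V2523 only 2 genes were called. Bdh1 ran from 8.66 to 32.5 TPM with a median of 18.9 TPM, and its SD was 40.9% of its mean against 15.8% in non_failing. The fitted difference of Bdh1 from vehicle was 0.19 on the log2 scale (SE 0.19, edgeR adjusted p = 0.785). Oxct1 ran from 69.5 to 203 TPM with a median of 122 TPM (0.15, SE 0.14, edgeR adjusted p = 0.771). Acat1 ran from 49.98 to 142 TPM with a median of 82.8 TPM (0.23, SE 0.16, edgeR adjusted p = 0.675). Slc16a1 ran from 16.9 to 56.0 TPM with a median of 32.6 TPM (0.15, SE 0.16, edgeR adjusted p = 0.813). One heart, V2562, was highest for all 4 genes, and V2571 was lowest for Oxct1, Acat1 and Slc16a1. Without V2523 the 4 fitted differences from vehicle were 0.19, 0.19, 0.30 and 0.16 for Bdh1, Oxct1, Acat1 and Slc16a1, and again none was called. In the same order they were 0.077, 0.058, 0.16 and 0.034 without V2562 and 0.29, 0.24, 0.32 and 0.26 without HFpEF+Veh V2532, with no call. With the length covariate they were 0.086, 0.032, 0.074 and -0.028.

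Against non_failing, Oxct1 was the member with the largest fitted difference in empagliflozin hearts. It lay below the non_failing mean in 10 of 11 hearts (log2 fold change -0.39, SE 0.14, edgeR p = 0.00936, adjusted p = 0.0980). It was not called, where 6.45% of all genes were. Leaving out V2562, the highest heart, gave -0.48 and an adjusted p of 0.0206, and the covariate for median effective length gave -0.47 and 0.00718. Bdh1 stood at -0.25 (SE 0.19, edgeR adjusted p = 0.506), Slc16a1 at -0.12 (SE 0.16, edgeR adjusted p = 0.751) and Acat1 at 0.27 (SE 0.16, edgeR adjusted p = 0.36). Slc16a1 was -0.23 without V2562, -0.052 without V2571 and -0.24 with the length covariate, with no call.

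Between the 2 drugs, Bdh1 showed the widest gap. It was above the empagliflozin mean in 10 of 11 TYA-018 hearts (log2 fold change 0.39, SE 0.17, edgeR p = 0.0312, adjusted p = 0.326). Slc16a1 stood at 0.16 (SE 0.15), Oxct1 at 0.11 (SE 0.13) and Acat1 at -0.05 (SE 0.15), with edgeR adjusted p-values of 0.727, 0.812 and 0.946. Over fits without 1 library, Slc16a1 ran from 0.095 to 0.27 and Oxct1 from 0.049 to 0.20, with no call. With the covariate for median effective length, Slc16a1 was called (0.45, adjusted p = 0.0298), Bdh1 stood at 0.58 and Oxct1 at 0.32 without a call, and Acat1 turned to 0.22. No gene of the 13765 passed edgeR's threshold in this comparison (percent called 0), while 1821 had an unadjusted p under 0.05. DESeq2 called 187 genes and limma on log2(TPM + 1) called 0. These p-values do not show that the drugs act alike on these genes.

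**Figure D2:**
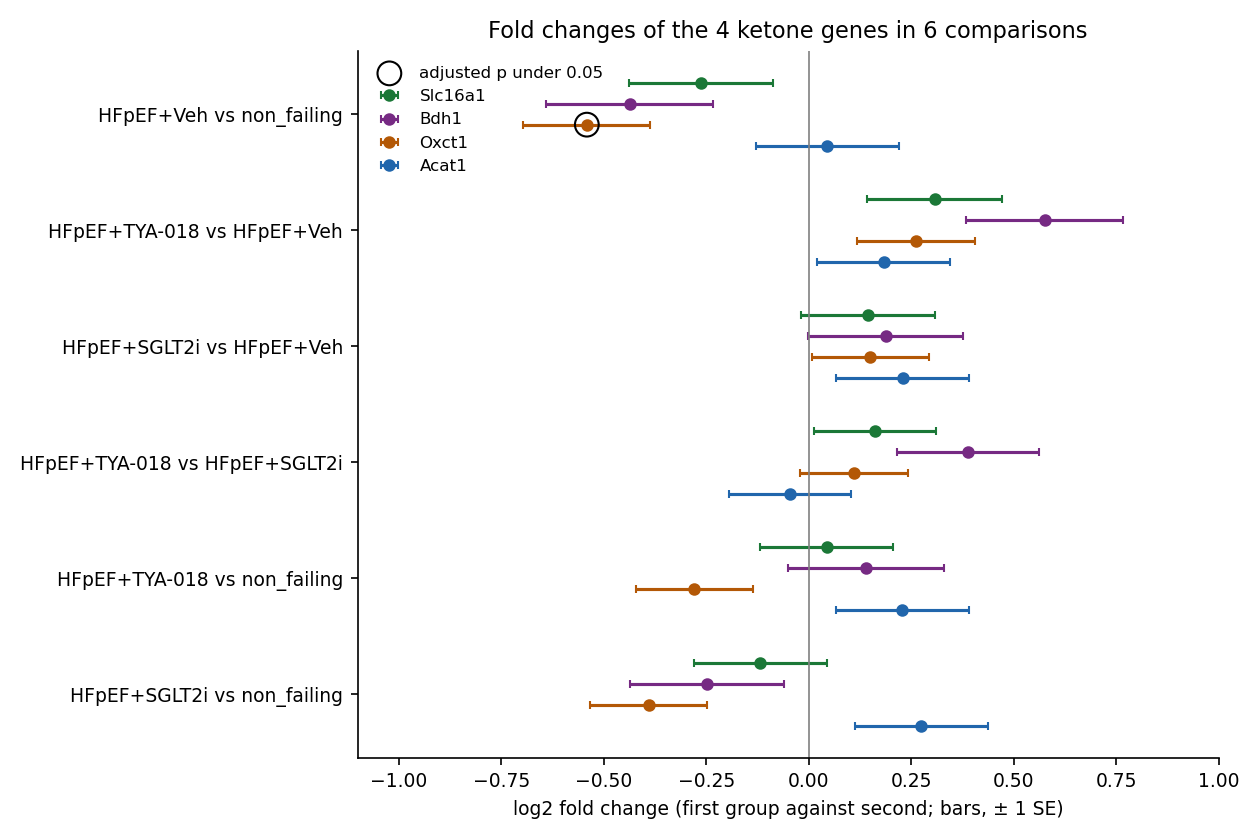
Fitted log2 fold change of Slc16a1, Bdh1, Oxct1 and Acat1 in 6 comparisons between groups, as points with bars of ± 1 SE, from 1 edgeR fit of 38 libraries. The ring marks the single call, Oxct1 in HFpEF+Veh against non_failing at -0.54, and the largest positive value is Bdh1 in HFpEF+TYA-018 against HFpEF+Veh at 0.58.

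Although Oxct1 and Acat1 each overlapped between groups, their ratio within a heart separated non_failing from every HFpEF group. The ratio was looked at after the levels had been seen. In non_failing there were 0.440 to 0.526 Acat1 transcripts (TPM) per Oxct1 transcript, with a median of 0.467. The ratio was 0.613 to 0.784 in HFpEF+Veh (median 0.716), 0.549 to 0.783 in HFpEF+TYA-018 (median 0.664) and 0.659 to 0.878 in HFpEF+SGLT2i (median 0.729). No HFpEF heart, treated or not, fell within the non_failing range. The ratio was thus 1.49 times that of non_failing in HFpEF+Veh (exact permutation test, two-sided, p = 0.000155), 1.38 times in HFpEF+TYA-018 and 1.55 times in HFpEF+SGLT2i (exact permutation p = 2.65e-05 for both). These are the smallest p-values that the group sizes allow, and adjusted over the 36 ratio tests (6 gene pairs in 6 comparisons) they were 0.00112, 0.000318 and 0.000318.

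A ratio to Oxct1 without overlap was not rare. Of all tested genes, 3.39% had one between HFpEF+Veh and non_failing, 1.59% between HFpEF+TYA-018 and non_failing and 2.08% between HFpEF+SGLT2i and non_failing. For ratios to Acat1 these shares were 0.799%, 0.959% and 1.1%. The Acat1 to Oxct1 ratio was also lower under TYA-018 than under empagliflozin, in 10 of 11 hearts below the empagliflozin mean (0.887 times, permutation test, p = 0.00658, adjusted p = 0.0169), with overlapping groups. Against vehicle it was 0.926 times under TYA-018 and 1.04 times under empagliflozin, with adjusted exact permutation p-values of 0.148 and 0.378. Without V2523 the vehicle hearts still stood above non_failing with no overlap (log2 difference 0.55, exact permutation p = 0.000311), and so did the ratio of expected counts (0.58).

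**Figure D3:**
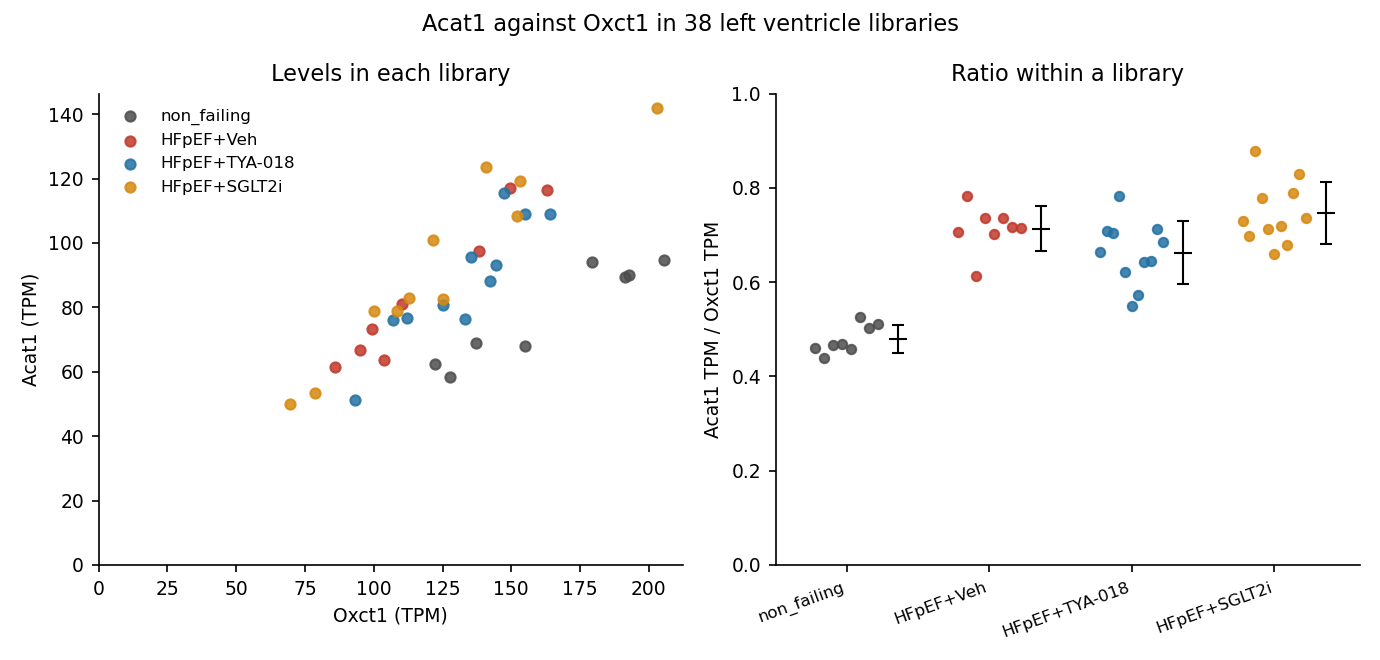
Left, Acat1 against Oxct1 in TPM, 1 point per library. Right, the Acat1 to Oxct1 ratio of TPM in each library by group, with mean ± SD. The 8 non_failing hearts sit between 0.440 and 0.526 and all 30 HFpEF hearts at 0.549 or above.

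The transporter and the dehydrogenase also shifted relative to the other 2 genes. Slc16a1 per Oxct1 was 0.199 to 0.222 in non_failing and 0.223 to 0.287 in HFpEF+Veh, next to each other but without overlap (1.20 times, exact permutation p = 0.000155, adjusted p = 0.00112). Without V2523 it was 1.21 times (adjusted exact permutation p = 0.00186), still without overlap. It was also higher than in non_failing under TYA-018 (1.22 times, adjusted p = 0.00497) and under empagliflozin (1.21 times, adjusted p = 0.00143), with overlapping groups and by exact permutation tests. Slc16a1 per Acat1 was 0.400 to 0.491 in non_failing and 0.301 to 0.399 in HFpEF+SGLT2i (0.781 times, exact permutation p = 2.65e-05, adjusted p = 0.000318), without overlap. It was also lower than in non_failing in HFpEF+Veh (0.807 times, adjusted exact permutation p = 0.0016, and 0.826 times without V2523) and under TYA-018 (0.887 times, adjusted exact permutation p = 0.0313). Between the drugs it was higher under TYA-018 (1.14 times, permutation test, adjusted p = 0.0169). These groups overlapped. Relative to Oxct1, then, both Acat1 and Slc16a1 were higher in the HFpEF groups, but shifts relative to Oxct1 were common. Of 12945 genes, 58.8% in HFpEF+Veh, 23.5% under TYA-018 and 32.7% under empagliflozin differed from non_failing in their ratio to Oxct1. These shares count both directions at an exact permutation p of 0.0178 or less.

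Bdh1 per Acat1 differed between TYA-018 and both other HFpEF groups, with overlapping hearts. It was 0.227 to 0.333 in non_failing, with a median of 0.283, and 0.162 to 0.264 in HFpEF+Veh, with a median of 0.208 (0.737 times, exact permutation p = 0.00124, adjusted p = 0.00497). Under TYA-018 it was 0.187 to 0.362, with a median of 0.272, and above the vehicle mean in 10 of 11 hearts (1.31 times, exact permutation p = 0.00574, adjusted p = 0.0169). Without V2523, the vehicle hearts stood at 0.763 times non_failing and the TYA-018 hearts at 1.26 times vehicle (adjusted exact permutation p = 0.00995 and 0.0313). It was also higher than under empagliflozin, where it ran from 0.0858 to 0.301 (1.40 times, permutation p = 0.0139, adjusted p = 0.0313). Against non_failing the TYA-018 hearts stood at 0.963 times and the empagliflozin hearts at 0.688 times, with adjusted exact permutation p-values of 0.774 and 0.0169. Bdh1 per Oxct1, by contrast, was 1.33 times non_failing under TYA-018 (adjusted exact permutation p = 0.0106). Bdh1 per Oxct1 was 1.21 times vehicle under TYA-018 (adjusted exact permutation p = 0.0377), a difference that lost its call without V2523 (adjusted p = 0.0796). In all, 17 of 36 ratio tests had an adjusted p under 0.05, which here meant an unadjusted p of 0.0178 or less, and 5 ratios did not overlap. Such a p was common among all genes. Of 12945 genes with TPM above 0 in every library, 58.8% reached it for their ratio to Oxct1 in HFpEF+Veh against non_failing, 23.5% under TYA-018 and 32.7% under empagliflozin against non_failing, 21.4% in TYA-018 against vehicle and 5.31% between the drugs. For ratios to Acat1 the shares were 5.87%, 14.8% and 9.56% in the HFpEF groups against non_failing, 5.35% in TYA-018 against vehicle and 0.966% between the drugs. The ratios to Oxct1 against non_failing, and that of Bdh1 to Oxct1 against vehicle, are to be read against these shares, which count both directions.

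Within each group, hearts with more Oxct1 also had more Acat1 and Slc16a1. After the group means of log2 CPM were removed, Oxct1 and Acat1 gave a Pearson r of 0.943 and a Spearman rho of 0.922 over 38 hearts (permutation p = 1e-05 for both, the smallest that 100000 permutations can give). Acat1 and Slc16a1 gave 0.934 and 0.908, and Oxct1 and Slc16a1 0.907 and 0.85, with the same p. Over the 6 pairs the adjusted permutation p was 2e-05 for each of these. Leaving out the 2 hearts farthest from the median, V2562 and V2571, left r at 0.930, 0.917 and 0.860. Within single groups the Oxct1 and Acat1 r ran from 0.884 in HFpEF+TYA-018 to 0.967 in HFpEF+SGLT2i.

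Bdh1 followed the other 3 less closely. Its r was 0.672 with Oxct1 (rho 0.676), 0.589 with Acat1 (rho 0.590) and 0.541 with Slc16a1 (rho 0.454), with adjusted permutation p-values for r of 0.000105, 0.00101 and 0.00345 and for rho of 7.5e-05, 0.000624 and 0.00956. Without the 2 hearts farthest from the median these r were 0.633, 0.651 and 0.587. As background, of 10922 expressed genes, 99.9% had a lower r with Oxct1 than Acat1 had, and 85.1% had a lower one than Bdh1 had, and the median r of all genes with Oxct1 was -0.03. Ranked by r with Bdh1 instead, Oxct1 stood above 99.6% of these genes, Acat1 above 96.6% and Slc16a1 above 93.2%.

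Properties of the library moved with these levels, by relations looked at after the data had been seen. Within groups, deeper libraries had higher log2 CPM of each gene, with r of 0.53 for Bdh1, 0.58 for Oxct1, 0.63 for Acat1 and 0.54 for Slc16a1 (rho 0.418, 0.513, 0.618 and 0.454). Adjusted over 12 such relations, the permutation p-values for r were 0.00575, 0.00117, 0.000429 and 0.00328. The median effective transcript length of a library, which salmon derives from fragment lengths and sequence bias, gave r of 0.42, 0.59, 0.69 and 0.73 (rho 0.355, 0.580, 0.735 and 0.728; adjusted permutation p for r of 0.0111, 0.00016, 6e-05 and 6e-05). Without V2532 and V2562 these r were 0.23, 0.43, 0.61 and 0.62, so that for Bdh1 the relation rested largely on those hearts.

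The mitochondrial share of the counts ran the other way. Its r was -0.39 for Bdh1, -0.68 for Oxct1, -0.71 for Acat1 and -0.69 for Slc16a1 (rho -0.33, -0.64, -0.63 and -0.65; adjusted permutation p for r of 0.0395, 9.6e-05, 8e-05 and 9.6e-05). Without V2571 and V2572, the r were -0.26, -0.54, -0.58 and -0.55. Of the hearts lowest in their groups for most of the 4 genes, V2571 had 39.0% mitochondrial counts, V2550 36.6% and HFpEF+Veh V2530 36.3%. V2562, the highest of its group, had 29.2%. Hearts lowest for fewer genes varied: in non_failing, V2507 (Acat1) had 37.8%, V2510 (Oxct1 and Slc16a1) 32.8% and V2502 (Bdh1) 30.3%. Empagliflozin V2574, lowest for Bdh1, had 31.6%. V2562 and V2532, both high for all 4 genes, had the longest median effective lengths of their groups, 2355 and 2301 bases. The part of these properties in the group differences was not tested beyond the covariate fit. The groups overlapped in all 3 properties, with mitochondrial shares of 30.3 to 37.8% in non_failing and 28.5 to 36.3% in HFpEF+Veh. Median effective lengths averaged 2056 bases in non_failing (SD 82.0) and 2019 bases in HFpEF+Veh (SD 133). They averaged 1978 bases under TYA-018 (SD 138) and 2096 bases under empagliflozin (SD 116).

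**Figure D4:**
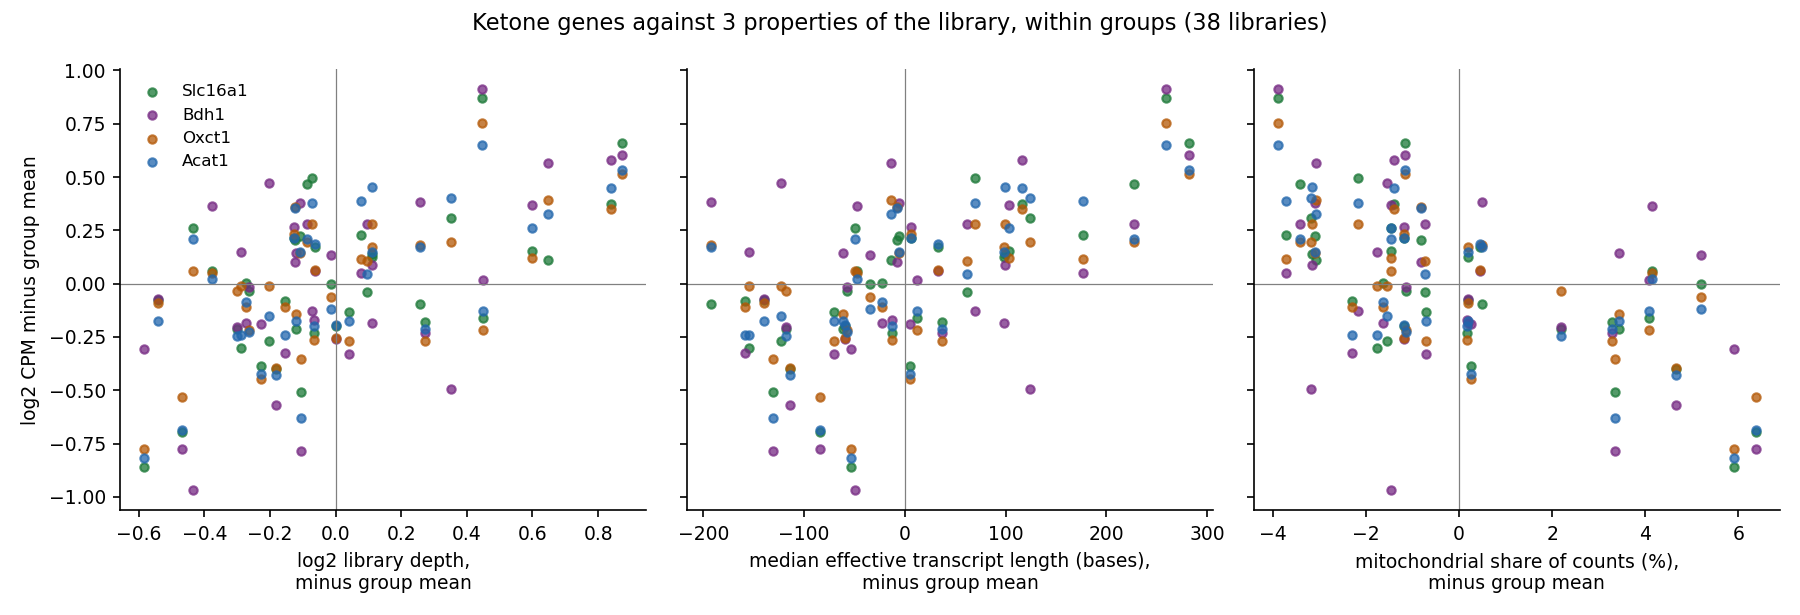
log2 CPM of Slc16a1, Bdh1, Oxct1 and Acat1 in each library, minus the mean of its group, against log2 library depth, the library's median effective transcript length in bases and its mitochondrial share of counts in percent, each minus its group mean. Points rise with depth and length (Pearson r 0.42 to 0.73) and fall with the mitochondrial share (-0.71 to -0.39).

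Effective length passed the threshold between the drugs for 1 of the 4 genes, Oxct1. It averaged 2226 ± 104 bases (SD, n = 11) under TYA-018 and 2375 ± 95.9 bases (SD, n = 11) under empagliflozin (permutation test, p = 0.00144, adjusted p = 0.0346 over 24 tests). No other of the 24 tests passed. Acat1 averaged 2594 and 2752 bases in the same groups (permutation p = 0.00662, adjusted p = 0.0713). Bdh1 averaged 2191 and 2318 bases and Slc16a1 2410 and 2505 bases, so all 4 genes were shorter under TYA-018. The median effective length over all tested genes was shorter there too, at 1978 ± 138 bases against 2096 ± 116 bases (SD). That gap was not tested, and the Oxct1 difference is not to be read as particular to this gene. Ratios of expected counts carry no correction for length. Between the drugs, the Acat1 to Oxct1 ratio of expected counts was 0.891 times (permutation p = 0.0107, adjusted p = 0.0227) and the Bdh1 to Acat1 ratio 1.40 times (permutation p = 0.0101, adjusted p = 0.0227). On that scale, Bdh1 to Acat1 was 1.32 times vehicle under TYA-018 (adjusted exact permutation p = 0.0102), and Slc16a1 to Oxct1 was 1.20 times non_failing in HFpEF+Veh, again without overlap.

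The 5 genes whose levels ran closest to each member across all 38 libraries were ranked by Pearson r. For Acat1 these were Hadhb (r = 0.983), a subunit of the trifunctional protein of beta-oxidation, Hadh (0.975), the short-chain hydroxyacyl-CoA dehydrogenase, Hibch (0.974), an enzyme of valine breakdown, Hspd1 (0.974), a mitochondrial chaperonin, and Ghitm (0.973). For Oxct1 they were Atpaf1 (0.948), an assembly factor of ATP synthase, Pln (0.937), the inhibitor of the SERCA calcium pump and one of the cardiomyocyte markers, Dbt (0.935), a subunit of the branched-chain ketoacid dehydrogenase, Cyfip2 (0.935) and Schip1 (0.916). For Slc16a1 they were Cap2 (0.967), which binds actin, Vdac1 (0.943), the outer mitochondrial membrane channel, Pdha1 (0.937), a subunit of pyruvate dehydrogenase, Mtx2 (0.934) and Grsf1 (0.934). Bdh1 had no such close partner: Mid1ip1 (0.787), a regulator of acetyl-CoA carboxylase, Rab40b (0.781), Inpp5a (0.779), Tmem177 (0.758) and Smpd1 (0.746), the acid sphingomyelinase, led its list. These are descriptions over 10922 genes with a mean log2 CPM of at least 1, in libraries that share the properties above. With group means removed, the r of Hadhb with Acat1 was 0.985, of Atpaf1 with Oxct1 0.954, of Cap2 with Slc16a1 0.966 and of Mid1ip1 with Bdh1 0.748.

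Of 15 other genes of ketone synthesis, use, transport and sensing considered here, 10 could be tested. Bsg, which encodes basigin, the chaperone that brings MCT1 to the cell surface, rose under TYA-018 relative to non_failing. It ran from 425 to 596 TPM in non_failing and from 457 to 823 TPM under TYA-018 (log2 fold change 0.36, SE 0.09, edgeR adjusted p = 0.0140), with 10 of 11 hearts above the non_failing mean. Against vehicle, where it ran from 460.5 to 734 TPM, it stood at 0.32 (SE 0.09, edgeR adjusted p = 0.0680), a value that was called without V2523 (0.37, adjusted p = 0.0465). It was called in 4 of 38 fits without 1 library, in DESeq2 (0.32, adjusted p = 0.0367) and with the length covariate (0.35, adjusted p = 0.0167). With library size alone it was 0.19 and in limma on log2(TPM + 1) 0.16, without a call (adjusted p = 0.212 and 0.286). Slc16a1, whose product basigin carries, was not called in either of these TYA-018 comparisons. Empagliflozin hearts stood at 0.26 for Bsg against non_failing (SE 0.09, edgeR adjusted p = 0.0964). That difference was called in limma on log2(TPM + 1) (0.28, adjusted p = 0.0428). Between the drugs Bsg stood at 0.10 (SE 0.09, edgeR adjusted p = 0.697), so its rise was not particular to TYA-018.

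A pair of low transcripts completed the calls. Slc16a6, a transporter of the MCT family, was lower under TYA-018 than in non_failing (medians 1.22 and 1.67 TPM; log2 fold change -0.36, SE 0.11, edgeR adjusted p = 0.0399). In HFpEF+Veh it stood at -0.41 (edgeR adjusted p = 0.0514), and it was called there without V2523 (-0.46, adjusted p = 0.0196). The TYA-018 call was lost without any one of non_failing V2502, V2503, V2507 or V2510 or of HFpEF+TYA-018 V2547, V2549, V2551, V2552 or V2555 (edgeR adjusted p up to 0.128), and also without the filter on low counts, in both limma fits and with the length covariate (adjusted p of 0.0527 to 0.0750). Acat3, a cytosolic thiolase gene, was lower than in non_failing under TYA-018 (-1.70, SE 0.52, edgeR adjusted p = 0.0349) and empagliflozin (-1.75, SE 0.51, edgeR adjusted p = 0.0309). Both calls were lost without non_failing V2503 or V2504, the first also without V2549 or V2559 and the second without V2565 (edgeR adjusted p up to 0.105 and 0.108). Its medians were only 0.255, 0.0842 and 0.0955 TPM in these groups, and among non_failing hearts it was highest in V2504 (0.716 TPM), the one with the most hepatocyte transcripts (420 TPM) in that group. In the vehicle hearts it was highest in V2523 (0.907 TPM), without which both calls stayed (-1.70 and -1.76, edgeR adjusted p = 0.0144 and 0.0116). The empagliflozin call was lost in both limma fits (adjusted p = 0.0647 and 0.0680), and the TYA-018 call in limma on log2(TPM + 1) (adjusted p = 0.0502) and without the filter on low counts (-1.71, adjusted p = 0.0549). The part of liver RNA in the difference was not tested.

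Counted by comparison, the 10 tested genes gave 1 call higher and 2 lower under TYA-018 against non_failing and 1 lower under empagliflozin against non_failing. Of all tested genes, 7.39% were called in the first of these comparisons (3.39% lower) and 6.45% in the second (2.99% lower). The 1 of 10 under empagliflozin is thus close to the share over all genes. Under TYA-018 the 3 of 10 genes are above it, in a small list that was not tested as a set. None was called in HFpEF+Veh against non_failing by edgeR, where 1, Slc16a6, had an unadjusted p under 0.05, as did 15.9% of all tested genes. DESeq2 called this gene there, and limma on log2(TPM + 1) called 0. None was called in the 3 comparisons among HFpEF groups by edgeR, although 3, 4 and 0 of them had an unadjusted p under 0.05 for TYA-018 against vehicle, empagliflozin against vehicle and TYA-018 against empagliflozin, beside 17.5%, 10% and 13.2% of all tested genes. DESeq2 called 1 for TYA-018 against vehicle, Bsg, and 0 in the other 2, and limma on log2(TPM + 1) called 0 in all 3. The median log2 fold change of the 10 genes was 0.03 in HFpEF+Veh against non_failing, beside 0.01 over all tested genes. The genes of this list without a test were Hmgcll1, Oxct2a, Oxct2b, Hcar2 and Ffar3. Oxct2a, a copy of SCOT known from testis, reached no more than 2 counts in any library, and Hcar2, a receptor for beta-hydroxybutyrate, no more than 35.

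Of 8 genes chosen for sharing substrates with the 4 members, 7 were tested, and 2 of these, Acaa2 and Hadha, were called in at least 1 comparison, as were 12.3% of all tested genes. Acaa2, the mitochondrial thiolase of beta-oxidation, was higher than in non_failing in HFpEF+Veh (log2 fold change 0.49, SE 0.10, edgeR adjusted p = 0.00256), under TYA-018 (0.67, adjusted p = 5.35e-06) and under empagliflozin (0.69, adjusted p = 2.64e-06). It ran from 232 to 377 TPM in non_failing and from 423 to 597 TPM in HFpEF+Veh, without overlap. Under TYA-018 it ran from 424 to 560 TPM, again without overlap, and under empagliflozin from 363 to 627 TPM, with its lowest value in V2571. In log2 CPM, too, Acaa2 did not overlap with non_failing in HFpEF+Veh and under TYA-018 and did under empagliflozin. On that scale 0.61%, 1.04% and 0.872% of all tested genes had no overlap, in either direction, between these HFpEF groups and non_failing. Hadha, the other subunit of the trifunctional protein, was higher than in non_failing under TYA-018 (0.53, adjusted p = 0.0258) and empagliflozin (0.69, adjusted p = 0.00433) by the same edgeR test. In HFpEF+Veh it stood at 0.38 (edgeR adjusted p = 0.239), and was called there with the length covariate (0.44, adjusted p = 0.0222) but stood at 0.21 without V2523 and V2532. Its TYA-018 call was lost without any one of non_failing V2502, V2507, V2509 or V2510 (adjusted p up to 0.0661) and with library size alone (0.47, adjusted p = 0.0634). Without V2523, Acaa2 in HFpEF+Veh stood at 0.45 (edgeR adjusted p = 0.00610) and Hadha at 0.30 (adjusted p = 0.332). The genes that make or use succinyl-CoA and acetyl-CoA beside SCOT (Suclg1, Sucla2 and Cs) and Hadh and Hadhb were not called in any of the 6 comparisons. Acat1, the thiolase of ketone use, thus had a smaller fitted difference from non_failing (0.05, 0.23 and 0.27) than Acaa2 in each HFpEF group, a gap that was not tested itself.

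**Figure D5:**
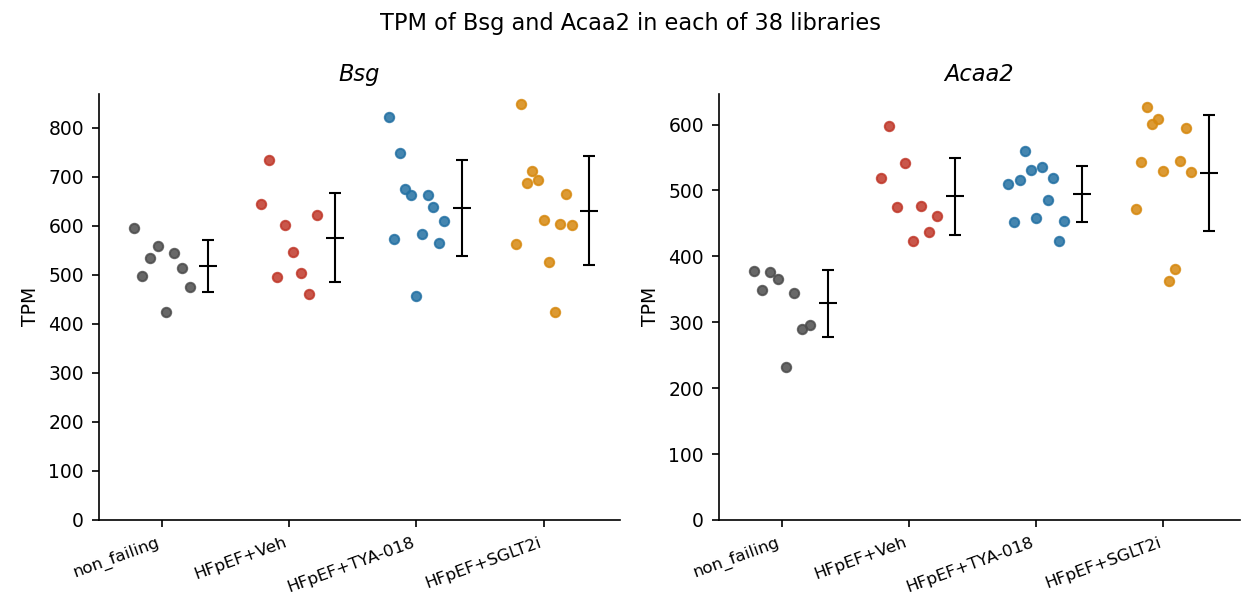
TPM (linear axis from 0) of Bsg, the chaperone of MCT1, and Acaa2, the thiolase of beta-oxidation, in each library by group, with mean ± SD beside the points. Acaa2 lies at 377 TPM or below in the 8 non_failing hearts and at 423 TPM or above in the vehicle and TYA-018 hearts, while the groups overlap for Bsg.

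Many known targets of PPARA, a nuclear receptor for fatty acids, were higher in the HFpEF groups than in non_failing. Of 17 tested, 7 were called higher and none lower in HFpEF+Veh against non_failing, 14 higher under TYA-018 and 16 higher under empagliflozin against non_failing. Of all tested genes, 1.77%, 4% and 3.46% were called higher in these comparisons. The list was chosen with results of these data known, and its counts were not recomputed without V2523. The median log2 fold change of these 17 genes was 0.39, 0.57 and 0.64 in the 3 comparisons, beside medians of 0.01 over all genes. Called genes included Pdk4, the kinase that shuts off pyruvate dehydrogenase, Cpt1a, which admits fatty acids to mitochondria, and Angptl4. The list holds none of the 4 members. Among the members, Oxct1 was called lower in the first of these comparisons.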

How the data were processed

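Total RNA of mouse left ventricle was converted to stranded poly(A) libraries. According to the study's methods, reads were trimmed with fastp and quantified by the authors with salmon (1.6.0 in the submitters' processing notes) against GENCODE mouse transcripts on GRCm38, while those notes also name hg38. The authors deposited expected counts, TPM and, as another value, effective transcript length in bases, 1 column per mouse, summed to genes with tximport. TPM is corrected for effective length and counts are not, so a library with another fragment length or sequence bias can shift 1 and not the other. All sample columns were mapped by title.

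Expected counts were rounded and analysed with edgeR 4.0.16 (filterByExpr, TMM, glmQLFit and glmQLFTest) in 1 fit of 4 groups. P-values were Benjamini-Hochberg adjusted over 13765 genes and called under 0.05. Fold changes are log2 of first over second group. Ratios of members' TPM on a log2 scale and effective lengths were compared by two-sided exact permutation tests, or with 100000 resamples where both groups had 10 or more hearts. The same test was run on the ratio of each of 12945 genes to Oxct1 and to Acat1 as background. Relations between hearts were computed on log2 CPM minus group means and permuted within groups. Gene positions came from GENCODE M21 on GRCm38 and promoters from RefSeq. The fit was also run on simulated data, and no outcome of that run is reported or used here. Alternatives were DESeq2 1.42.0, limma 3.58.1 on log2(TPM + 1) and log2(TPM + 0.1), library size alone, no filter, a length offset, only the groups compared, and leaving out each library. The study's own analysis was also on log2(TPM + 1), after it kept only protein-coding genes. The limma alternative on that scale applied no such filter, so it resembles the study's analysis and does not repeat it. The members and lists were chosen with earlier results of these data known. Genes named are the 4 members, other ketone and neighbouring genes called at least once, Bsg, Alb, markers that moved with a result, and the 5 genes most correlated with each member. Pdk4, Cpt1a and Angptl4, Slc16a6 in HFpEF+Veh and the untested Oxct2a and Hcar2 were named after their values were seen. Certain genes of these lists are not reported here. Lists of fibroblast, endothelial, macrophage, erythroid, adipocyte and skeletal muscle markers were also summed.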

Additional observations from a re-analysis of the deposited data

Results flagged for a closer look

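The TPM of the 4 members and of Bsg, Acat3 and Slc16a6, and the 6 ratios between members, were examined for single hearts far from the rest of their group. This was done in non_failing and in HFpEF+Veh, which makes 26 groups of 8 hearts. Chance flags about 1 in 20 such groups. A heart stood out in 1 of the 26. Acat3 was 0.907 TPM in HFpEF+Veh V2523, against at most 0.187 TPM in the other 7 vehicle hearts. V2523 was also the heart with 492.8 TPM of Alb. The groups of 11 were not examined in this way, and none of the 4 members or of their ratios had such a heart.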

How the results depend on the processing

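Of 216 values of member fold changes under other settings than leaving out 1 library, 202 kept their direction and their side of the threshold. Oxct1 in HFpEF+Veh against non_failing lost its call with library size alone (-0.47, adjusted p = 0.0898), without the filter on low counts (-0.54, adjusted p = 0.0644) and in limma on log2(TPM + 0.1) (-0.49, adjusted p = 0.0722), and ran from -0.63 to -0.49 over fits without 1 library. The covariate for median effective length, chosen after seeing the data, added calls for Bdh1 (0.67) and Slc16a1 (0.42) in TYA-018 against vehicle, Slc16a1 in TYA-018 against empagliflozin (0.45), Acat1 in TYA-018 against non_failing (0.39) and Oxct1 in empagliflozin against non_failing (-0.47, and -0.48 to -0.33 without 1 library). It turned Slc16a1 in empagliflozin against vehicle to -0.028 and Acat1 in TYA-018 against empagliflozin to 0.22. Acat1 in HFpEF+Veh against non_failing turned to -0.14 without V2523 and V2532 together, a choice made after seeing the data, and ran from -0.041 to 0.10 without 1 library. Acat1 between the drugs ran from -0.11 to 0.028 and Slc16a1 in TYA-018 against non_failing from -0.016 to 0.085 without 1 library. The latter was -0.011 with library size alone and -0.00264 and -0.00263 in the limma fits. With expected counts, the log2 ratios of Slc16a1 to Oxct1 and to Bdh1 in empagliflozin against vehicle turned to -0.011 and -0.0057. Without V2523, Bdh1 to Oxct1 in TYA-018 against vehicle was 0.24. The cause of these changes was not tested.

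The number of other ketone genes called in HFpEF+Veh against non_failing went from 0 to 1 with DESeq2, the length offset, the covariate and without V2523 and V2532 (0 to 1 without 1 library). In TYA-018 against vehicle it went from 0 to 1 with DESeq2 and the covariate (0 to 1 without 1 library). In TYA-018 against non_failing it went from 3 to 1 without the filter and in limma on log2(TPM + 1) (1 to 3 without 1 library), and in empagliflozin against non_failing from 1 to 2 without the filter (0 to 2 without 1 library). In both limma fits that count stayed at 1 while Acat3 lost its call, and in limma on log2(TPM + 1) the gene called was Bsg. Calls over all genes in TYA-018 against vehicle ran from 0 (limma on log2(TPM + 0.1)) to 1096 (library size alone, which shifted the median of all genes by -0.14) around 266, and in empagliflozin against vehicle from 0 (both limma fits) to 457 (no filter) around 117, with 2 without V2523. In HFpEF+Veh against non_failing, 433 calls became 916 without V2523 and V2532. In TYA-018 against empagliflozin, 0 calls became 187 with DESeq2, 5 with the length offset and 450 with the covariate. No paired analysis was possible because the labels number mice without repeating a number across groups. Libraries held 21.5 M counts or more, and what depth limits was not tested.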

Other observations

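Other cell types were summed over marker lists. Fibroblast markers summed to 168 to 279 TPM in non_failing and 248 to 585 TPM in HFpEF+Veh, with the highest value in V2530, the vehicle heart lowest for all 4 ketone genes. They were 214 to 326 TPM under TYA-018 and 200 to 300 TPM under empagliflozin. Endothelial markers had medians of 1969, 2684, 2296 and 2355 TPM and macrophage markers of 118, 135, 123 and 127 TPM in the non_failing, vehicle, TYA-018 and empagliflozin groups. The highest endothelial sum, 4285 TPM, was in V2571, the empagliflozin heart lowest for Oxct1, Acat1 and Slc16a1. Erythroid markers had medians of 5841, 9124, 12452 and 6646 TPM, with 41874 TPM in HFpEF+Veh V2529. White adipocyte markers summed to at most 0.791 TPM in any heart. Skeletal muscle markers summed to 53.9 TPM in HFpEF+Veh V2532 and to at most 4.74 TPM in the hearts of the other groups. The part of these cell types in the ketone gene levels was not tested.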
